A study of Mus musculus with 9 samples.

Results

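The kidney of a tumour-bearing mouse was set against the kidney of a wild type mouse, both given PBS (phosphate-buffered saline, the vehicle). The pair was chosen by its labels, tissue kidney and treatment PBS, and makes up 2 of the 9 libraries of the series. Each side holds 1 library of total RNA, so there is no replicate and no test, and the tumour cannot be told apart from any other way in which the animals differed. The series title places the study in cancer cachexia and in the uptake of the Wnt co-receptor LRP6 driven by Dkk1. The tumour group carries the status label Tumor and the wild type group the status label Wild Type, and both were given PBS alone. The labels do not give the tumour, the strain, the sex, the age, the number of animals per library or the time of collection.

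The kidney filters blood in the glomerulus and recovers most of the filtrate in the proximal tubule, whose cells burn fat and carry urate, amino acids, phosphate and organic anions. The loop of Henle, the distal tubule and the collecting duct then set the salt and water content of urine. Inflammation elsewhere in the body reaches the organ through cytokines such as interleukin-6, which act through STAT3 and C/EBP factors on acute phase genes, and a stressed tubule switches on its own injury genes.

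The tumour kidney library held 44421797 counts and the wild type kidney library 42480786 counts over 24421 genes. Levels are given as CPM, counts brought to a common library total after TMM scaling, which also corrects for differences in RNA make-up. A log2 ratio is always tumour over wild type, and its 95% interval is an exact binomial one that covers counting error only. A count of 0 allows up to 3 counts, which is 0.0674 CPM in the tumour kidney and 0.0708 CPM in the wild type kidney. Genes with 100 or more counts in the higher library were described, 12897 in all, and a gene is called higher or lower where its ratio was at least 2-fold. By that size rule 748 genes (5.8%) were higher and 522 genes (4.05%) were lower in the tumour kidney. The median log2 ratio was 0.01, and 76.1% of genes lay within 1.5-fold. The 2 wild type PBS muscle libraries of the same series carry the same labels but different set letters. Between them 26.5% of 10720 genes were past 2-fold in either direction, against 9.85% in the kidney pair. Both kidney libraries carry the set letter A, so these percentages are not like measures of spread. In whole tissue, fewer cells of a type and less RNA per cell cannot be told apart. The gene lists used below were chosen with earlier results of these data known, so counts of their members are description only. Markers of fat, of neutrophils and of red cells were higher in the tumour kidney, with values given below, and both libraries carried Y-linked transcripts.

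**Figure D1:**
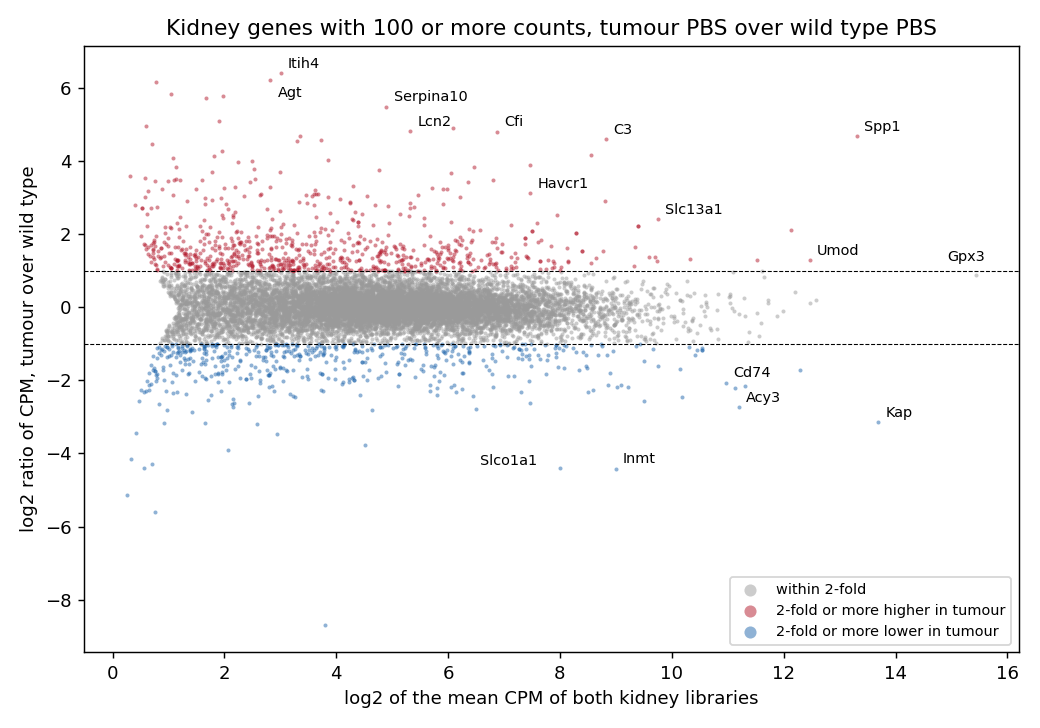
Each point is 1 of the 12897 genes with 100 or more counts, with the mean level of both kidney libraries (log2 CPM) on the x axis and the log2 ratio of tumour over wild type on the y axis. Dashed lines mark 2-fold; a gene with 0 counts is drawn at its 3-count limit. Spp1 and Kap stand out at high expression, at log2 ratios of 4.68 and -3.15.

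Among the transcripts with the most reads, Spp1 was higher and Kap lower in the tumour kidney. Spp1 (chromosome 5, 104435118 to 104441050, build mm10) encodes osteopontin, a secreted phosphoprotein of injured and distal tubules. Spp1 took up 1.95% of all counts in the tumour kidney and 0.0757% in the wild type kidney, or 19481 against 759 CPM, a log2 ratio of 4.68 (4.67 to 4.70). Per gene length, by the deposited RPKM, Spp1 ranked 2 of all genes in the tumour kidney and 117 in the wild type kidney. Kap (chromosome 6, 133849851 to 133853762) is the kidney androgen-regulated protein of the proximal tubule and moved the other way. Kap was at 2687 CPM in the tumour kidney against 23771 CPM in the wild type kidney, a log2 ratio of -3.15 (-3.15 to -3.14), and ranked 3 by RPKM in tumour and 1 in wild type.

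Acute phase genes were mostly higher in the tumour kidney. Of 31 listed genes of the acute phase and the interleukin-6 and STAT3 route, 22 were described, 17 were higher and 0 lower, with a median log2 ratio of 2.03, and 30 of the 31 had a higher CPM in tumour. Itih4 (chromosome 14, 30886476 to 30902353), an inter-alpha-trypsin inhibitor heavy chain secreted mainly by liver, had the highest ratio of all named genes. Itih4 had 709 counts in the tumour kidney and 8 in the wild type kidney, a log2 ratio of 6.40 (5.41 to 7.62). Haptoglobin, Hp, which binds free haemoglobin, was at 132 CPM in tumour and 4.41 CPM in wild type (4.91). Lipocalin-2, Lcn2 (chromosome 2, 32384633 to 32388252), which binds bacterial iron carriers and is a marker of both tubular injury and neutrophils, was at 77.4 CPM in tumour and 2.74 CPM in wild type (4.82). These secreted proteins were near the detection limit or low in the wild type kidney.

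Other secreted acute phase proteins were also higher. Serum amyloid P, Apcs, had 324 counts in tumour and 9 in wild type (log2 ratio 5.10), and the protease inhibitor Serpina3n was at 27.1 CPM in tumour and 1.68 CPM in wild type (4.02). The fibrinogen chains Fga and Fgg, which form clots, were at 132 and 22.8 CPM in tumour and at 16.2 and 2.64 CPM in wild type (3.02 and 3.11). The ferroxidase Cp was at 153 CPM in tumour and 35.7 CPM in wild type, and the drug-binding Orm1 at 4.92 CPM in tumour and 1.32 CPM in wild type (1.90). Serum amyloid A, the main acute phase protein of mouse liver, stayed low, with 75 counts for Saa1 and 56 for Saa2 in tumour and 28 and 19 in wild type, all under the minimum of 100.

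A receptor chain and nuclear factors of the route were higher too. Osmr, the oncostatin M receptor chain, was at 14.6 CPM in tumour and 4.81 CPM in wild type (log2 ratio 1.60). Stat3 itself was at 216 CPM in tumour and 84.9 CPM in wild type (1.35), and Socs3, the feedback inhibitor that STAT3 induces, at 13.7 CPM in tumour and 2.83 CPM in wild type (2.27). The factor Cebpd was at 34.3 CPM in tumour and 8.80 CPM in wild type (1.96). Il6 had 0 counts in both kidneys. Among liver markers, albumin, Alb, had 199 counts in tumour and 190 in wild type (-0.00). Of 9 described hepatocyte genes 4 were higher, all of them acute phase or serpin genes (Fga, Fgg, Serpina1a and Serpina1c), and 0 were lower, with a median of 0.54.

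The windows before the start of 4 of these genes are shown because they hold a match to the STAT motif (TTCNNNGAA) or the C/EBP motif (TTGCNNAA), in capitals. Each is the 250 bases before the gene's RefSeq start on build GRCm38.p6, read 5′ to 3′ on the gene's strand, and both strands were searched.
Itih4 (chr14:30886226-30886475, plus strand): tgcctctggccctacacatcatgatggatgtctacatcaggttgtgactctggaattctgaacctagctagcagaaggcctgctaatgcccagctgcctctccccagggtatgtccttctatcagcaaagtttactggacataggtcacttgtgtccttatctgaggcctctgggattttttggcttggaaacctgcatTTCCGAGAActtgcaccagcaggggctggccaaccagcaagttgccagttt
Lcn2 (chr2:32387740-32387989, minus strand): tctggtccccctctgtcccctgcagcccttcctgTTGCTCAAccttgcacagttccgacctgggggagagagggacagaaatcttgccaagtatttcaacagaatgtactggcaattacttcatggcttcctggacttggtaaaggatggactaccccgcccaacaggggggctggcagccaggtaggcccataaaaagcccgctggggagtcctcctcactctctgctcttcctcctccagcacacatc
Fga (chr3:83025903-83026152, plus strand): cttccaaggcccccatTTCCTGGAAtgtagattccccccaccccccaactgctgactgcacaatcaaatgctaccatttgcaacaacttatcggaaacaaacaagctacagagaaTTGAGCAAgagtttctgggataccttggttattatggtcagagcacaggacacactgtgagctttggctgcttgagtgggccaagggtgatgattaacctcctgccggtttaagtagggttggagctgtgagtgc
Steap4 (chr5:7960222-7960471, plus strand): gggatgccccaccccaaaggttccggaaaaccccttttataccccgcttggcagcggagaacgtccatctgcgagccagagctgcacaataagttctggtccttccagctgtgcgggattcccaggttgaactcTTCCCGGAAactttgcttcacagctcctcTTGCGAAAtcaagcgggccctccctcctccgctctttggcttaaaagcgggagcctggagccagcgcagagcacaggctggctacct
Of the 17 acute phase genes past 2-fold, 14 had a window, and 7 of these held at least 1 match to either motif. Male-biased kidney genes that were lower in tumour, described below, were searched for the same motifs. Of 6 with a window 3 held a match, so matches were not particular to the acute phase genes. Over all 20788 RefSeq windows used, 6.84% held the STAT motif and 9% the C/EBP motif. The share with either motif was not counted. Genes were counted once whatever their number of windows, so the gene count and these shares are not like for like. A match describes letters and is not evidence of binding. Steap4, a metalloreductase, held both motifs and was at 29.8 CPM in tumour and 3.80 CPM in wild type (log2 ratio 2.97).

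Part of the tubular injury genes were higher as well. Of 34 described members 16 were higher and 1 lower, with a median log2 ratio of 0.98. Some of the 16 stand on other lists too, such as Lcn2 and Cp among acute phase genes and Krt19 and Krt20 among urothelial markers. Havcr1 (chromosome 11, 46735080 to 46779578), the phosphatidylserine receptor known as KIM-1 that injured proximal tubules display, was at 318 CPM in tumour and 36.6 CPM in wild type, a ratio of 3.12 (3.04 to 3.19). Complement C3 was at 869 CPM in tumour and 35.8 CPM in wild type (4.60). Sox9, a factor of repairing tubule cells, was at 6.40 CPM in tumour and 0.496 CPM in wild type (3.69). Krt20, a keratin of damaged tubules and of urothelium, was at 4.42 CPM in tumour and 0.590 CPM in wild type (2.91). The cell cycle inhibitor Cdkn1a was at 19.5 CPM in tumour and 5.50 CPM in wild type (1.83). Other injury markers were within 2-fold: the adhesion molecule Vcam1 had a log2 ratio of 0.74, clusterin, Clu, 0.96 and the keratin Krt8 0.08, while Timp1 had 22 counts in tumour and 24 in wild type. The interferon-induced chemokine Cxcl10 was lower, with 63 counts in tumour and 131 in wild type (-1.13).

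**Figure D2:**
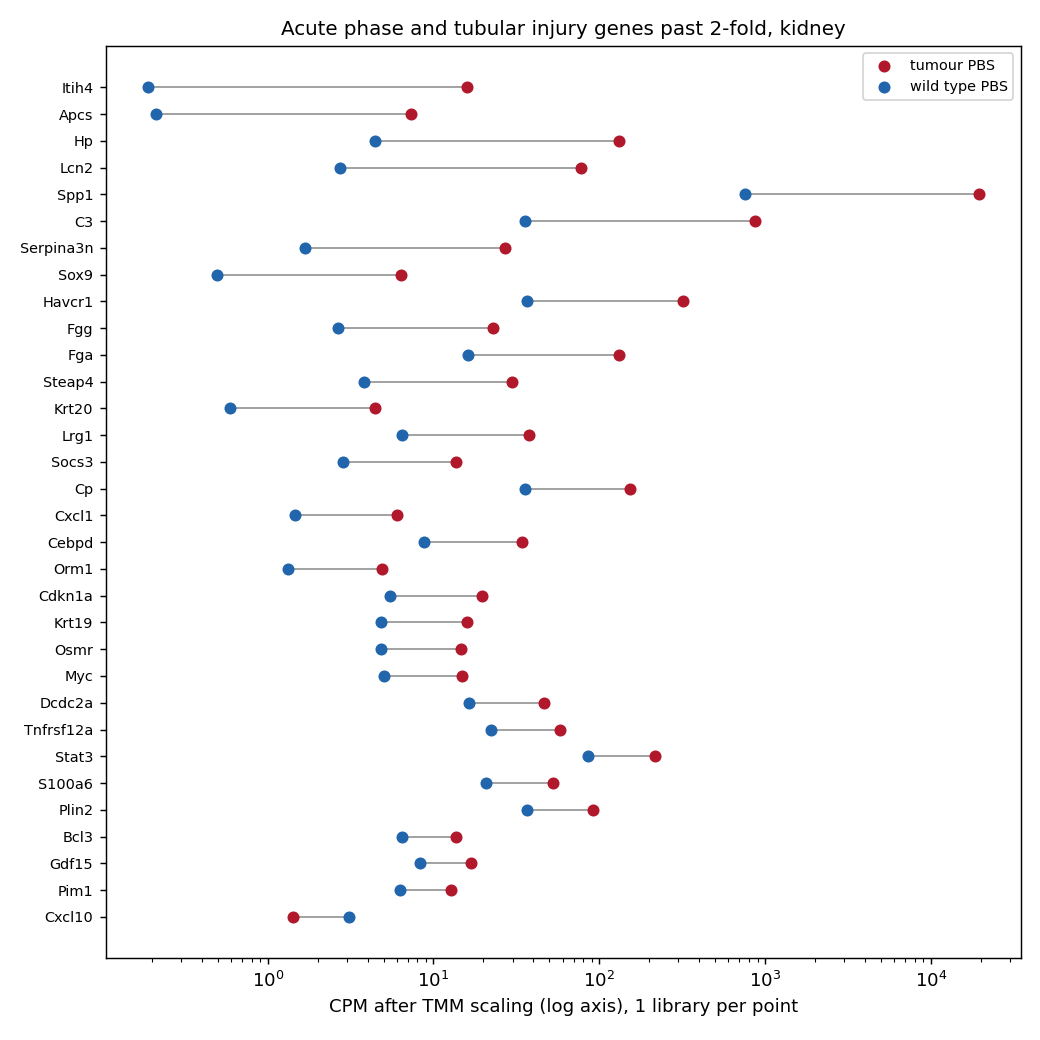
CPM on a log axis of the acute phase and tubular injury genes that were past 2-fold, sorted by ratio, with 1 library per point. Tumour lies to the right of wild type for every gene drawn except Cxcl10, and Spp1 has the highest CPM in both.

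Complement genes were higher or within 2-fold. Of 21 described members 7 were higher and 0 lower (median log2 ratio 0.40). The 7 include Cfd (4.18), which is also on the list of adipocyte markers given below. Factor I, Cfi, which cuts C3b, was at 227 CPM in tumour and 8.12 CPM in wild type, a ratio of 4.81 (4.65 to 4.97), the largest of the list. The lectin-route protease Masp1 had 123 counts in tumour and 10 in wild type (3.55), and C4b was at 572 CPM in tumour and 225 CPM in wild type (1.34). The macrophage products C1qa and C1qb were at 19.3 and 17.2 CPM in tumour and at 20.7 and 19.4 CPM in wild type (-0.10 and -0.17).

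Part of the antigen presentation and interferon genes were lower. Of 18 described genes of MHC presentation 0 were higher and 8 lower, all 18 ratios were below 0, and the median was -0.86. The class II invariant chain Cd74, which also acts as a receptor for the cytokine MIF, was at 771 CPM in tumour and 3232 CPM in wild type, a log2 ratio of -2.07 (-2.09 to -2.05). The class II chains H2-Aa and H2-Ab1 were at 33.8 and 135 CPM in tumour and at 118 and 349 CPM in wild type (-1.80 and -1.37), and their master regulator Ciita at 7.41 CPM in tumour and 18.3 CPM in wild type (-1.30). The non-classical class I genes H2-Q6 and H2-Q7, which are near-identical copies that the counting may split, had ratios of -2.04 and -1.99. Of 31 interferon response genes 1 was higher and 10 lower (median -0.54). The interferon-gamma-induced GTPases Tgtp1 and Iigp1 were at 26.7 and 9.43 CPM in tumour and at 124 and 37.2 CPM in wild type (-2.22 and -1.98). Tgtp2, a near-identical copy of Tgtp1, was at 17.9 CPM in tumour and 94.2 CPM in wild type. Gbp7, a related GTPase, was the 1 member that was higher (1.40), and the signal carrier Stat2 was at 22.4 CPM in tumour and 21.7 CPM in wild type (0.04). Wild type libraries alone can differ in these genes. In the 2 wild type PBS muscle libraries Iigp1 was at 470 and 19.2 CPM and Tgtp1 at 93.6 and 15.6 CPM. Cd74 was at 132 and 67.2 CPM there, and H2-Ab1 at 24.3 and 24.4 CPM. The interferon list median of tumour over wild type in muscle was -1.15 against the first and 0.30 against the second.

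Leukocyte markers moved in different directions, in values that stand beside the immune results. For 16 of 17 measured neutrophil genes the tumour kidney had the higher CPM, only 3 reached 100 counts, and the summed level was 102 CPM in tumour and 5.03 CPM in wild type. The neutrophil protein S100a8 had 181 counts in tumour and 3 in wild type, a log2 ratio of 5.84 (4.27 to 8.13), and S100a9 had 395 in tumour and 24 in wild type (3.97). Lcn2, which the tubule also makes, supplied 77.4 of the summed 102 CPM in tumour. Lymphocyte markers summed to 8.11 CPM in tumour and 20.9 CPM in wild type, and of the 16 measured only the pan-leukocyte Ptprc was described, at 4.29 CPM in tumour and 9.98 CPM in wild type (-1.22). The T cell gene Cd3g had 4 counts in tumour and 41 in wild type, whereas Cd3e had 12 in each. Of 15 described macrophage and monocyte genes 3 were higher (Plac8, Cd14 and Itgam at 3.23, 2.85 and 1.92) and 0 lower, with a median of -0.11, and Adgre1, the F4/80 antigen, was at 2.29 CPM in tumour and 3.66 CPM in wild type. The part of these cells in the MHC, interferon and acute phase results was not tested.

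Chemokines and cytokines showed 2 higher and 4 lower of 15 described (median log2 ratio -0.05). The neutrophil attractant Cxcl1 was at 6.06 CPM in tumour and 1.46 CPM in wild type (2.05), and the B cell attractant Cxcl13 at 3.14 CPM in tumour and 0.684 CPM in wild type (2.20). Tnfsf10, the death ligand TRAIL, was at 48.2 CPM in tumour and 171 CPM in wild type (-1.83), and Il18 had 27 counts in tumour and 104 in wild type (-2.02).

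Along the nephron, markers past 2-fold were lower in the late proximal tubule and higher in the segments after it. Most late proximal markers were within 2-fold, as were most from the thick ascending limb to the intercalated cells. Over all described genes 5.8% were higher and 4.05% lower, and of intercalated cell markers 5.88% were higher. The segment markers too were chosen with earlier results of these data known. Of 18 described markers of the late proximal tubule (segments S2 and S3) 0 were higher and 7 lower, with a median log2 ratio of -0.73 and summed levels of 9479 CPM in tumour and 19529 CPM in wild type. Slco1a1 (chromosome 6, 141907282 to 141946962), an organic anion carrier, was at 23.1 CPM in tumour and 488 CPM in wild type, a ratio of -4.40 (-4.49 to -4.31). Acy3, which splits acetylated amino acid conjugates, was at 614 CPM in tumour and 4103 CPM in wild type (-2.74), and ranked 122 by RPKM in tumour and 3 in wild type. The urate carrier Slc22a12 was at 358 CPM in tumour and 1972 CPM in wild type (-2.46), and the organic anion carrier Slc22a6 at 425 CPM in tumour and 1298 CPM in wild type (-1.61). The other 11 were within 2-fold, such as Slc5a1, the SGLT1 glucose carrier, at 92.6 CPM in tumour and 62.7 CPM in wild type (0.56).

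In the early proximal tubule (segments S1 and S2) the shift was smaller. Of 20 described markers 1 was higher and 1 lower, 12 ratios were below 0 and 8 above, and the median was -0.14. The summed levels were 12557 CPM in tumour and 13286 CPM in wild type, with the higher marker, Slc5a12, included. Slc5a12, a lactate carrier, was at 1823 CPM in tumour and 731 CPM in wild type (log2 ratio 1.32). Gatm, the first enzyme of creatine synthesis, was at 459 CPM in tumour and 921 CPM in wild type, 0.499 times as high, and was no longer past 2-fold with scaling by total counts or by DESeq2 size factors. The glucose carrier Slc5a2 (SGLT2) and the endocytic receptor Lrp2 (megalin) had ratios of -0.35 and -0.57. Most podocyte markers were within 2-fold, with 1 of 12 higher (median 0.25): the slit diaphragm gene Nphs1 had a ratio of 0.21, and Ptgds, a prostaglandin D synthase that other cells also make, was at 41.7 CPM in tumour and 5.10 CPM in wild type (3.03).

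Thin limb and collecting duct markers leaned upward. Of 8 described thin limb markers 4 were higher and 0 lower (median log2 ratio 1.12). The urea carrier Slc14a2, found in thin limbs and inner collecting duct, was at 106 CPM in tumour and 14.8 CPM in wild type (2.84), and Akr1b3, the aldose reductase that makes the osmolyte sorbitol, at 499 CPM in tumour and 173 CPM in wild type (1.53). In the thick ascending limb 3 of 13 were higher and 0 lower (0.30). Umod, a protein released into urine, was at 8042 CPM in tumour and 3300 CPM in wild type, a ratio of 1.29 (1.28 to 1.29), whereas Slc12a1, the salt carrier of the same cells, was at 889 CPM in tumour and 693 CPM in wild type (0.36). Of 17 markers of the connecting tubule and principal cells 5 were higher and 0 lower (0.69). Slc14a2 is counted on this list and on the thin limb list. The vasopressin-regulated water channel Aqp2 was at 1117 CPM in tumour and 429 CPM in wild type (1.38), and the sodium channel chain Scnn1a at 201 CPM in tumour and 77.8 CPM in wild type (1.37), while Aqp3, on the other face of the cell, was at 118 CPM in tumour and 163 CPM in wild type (-0.47). Markers of 1 cell type did not all move together.

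Distal convoluted tubule and intercalated cell markers were mostly within 2-fold. Of 13 distal convoluted markers 2 were higher (median log2 ratio 0.17): Sgk1, a kinase induced by aldosterone and glucocorticoid, at 230 CPM in tumour and 48.4 CPM in wild type (2.25), and the calcium buffer Calb1 at 883 CPM in tumour and 400 CPM in wild type (1.14). The defining salt carrier Slc12a3 had a ratio of -0.14. Of 17 intercalated cell markers 1 was higher (0.21), the master factor Foxi1 at 42.0 CPM in tumour and 18.5 CPM in wild type (1.18). Markers of the papillary surface and urothelium were higher for 7 of 10 described and lower for 0 (1.71), at low levels that summed to 123 CPM in tumour and 50.4 CPM in wild type. The basal keratin Krt5 was at 13.7 CPM in tumour and 2.22 CPM in wild type (2.62), and the urothelial plaque gene Upk2 had 175 counts in tumour and 30 in wild type (2.47). How much cortex, medulla and pelvis each library held is not in the labels. The part of urothelium in the segment shifts and in the tubular injury count was not tested.

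**Figure D3:**
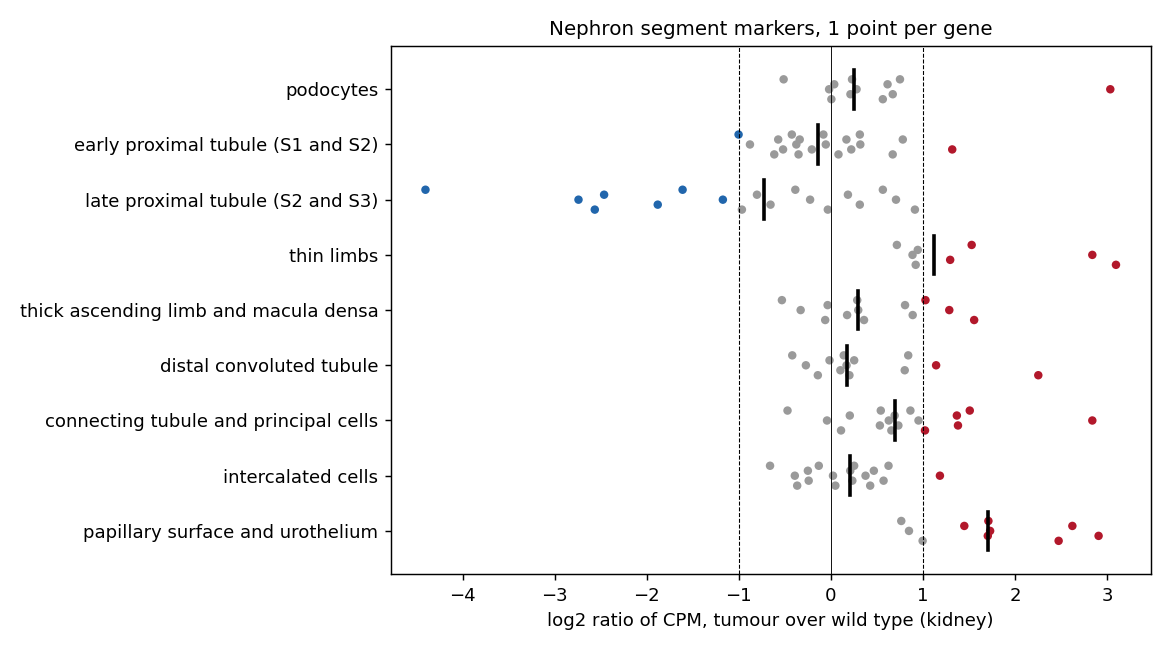
Log2 ratio of CPM, tumour over wild type, of each described marker (1 point per gene) by nephron segment from glomerulus to urothelium, with the median as a black bar and dashed lines at 2-fold. The late proximal tubule has 7 markers below the left line and 0 above the right one, and the thin limbs and urothelium have medians of 1.12 and 1.71.

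Male-biased genes of the proximal tubule were mostly lower, and Slco1a1, Slc7a13 and Cyp7b1 are also late proximal markers. In the mouse, androgen drives a set of proximal tubule genes in males. Of 10 such genes 8 were lower and 0 higher, with a median log2 ratio of -2.17 and summed levels of 7283 CPM in tumour and 34166 CPM in wild type, with Kap the largest share in wild type. The solute carrier Slc7a13 was at 209 CPM in tumour and 1234 CPM in wild type (-2.56), the acyl-CoA synthetase Acsm3 at 49.3 CPM in tumour and 304 CPM in wild type (-2.63), and the cytochrome P450 Cyp4b1 at 930 CPM in tumour and 4134 CPM in wild type (-2.15). Cyp4a12a, a fatty acid hydroxylase, was at 214 CPM in tumour and 972 CPM in wild type (-2.18), and reads may be split between it and its near-identical copy Cyp4a12b. Cyp7b1 and Cyp2e1, also on the list, had ratios of 0.31 and 0.24.

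Both kidneys carried transcripts of the Y chromosome, and neither library had the high Xist of a female. The Y-linked genes Kdm5d and Uty had 757 and 890 counts in tumour and 746 and 859 in wild type, Ddx3y had 1612 in tumour and 2208 in wild type, and Eif2s3y had 791 in tumour and 1584 in wild type (log2 ratio -1.07). Xist, which silences the X chromosome in females, had 24 counts in tumour and 29 in wild type. Of 6 genes listed as female-biased 3 were higher, the fatty acid hydroxylase Cyp4a14 (3.48), the amino acid carrier Slc7a12 at 94.7 CPM in tumour and 9.79 CPM in wild type (3.27) and the prolactin receptor Prlr at 118 CPM in tumour and 31.2 CPM in wild type (1.91). Slc22a7 and Cyp2a4, whose place on that list is uncertain, were lower (-1.88 and -1.66). Hormone levels are not in the labels.

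**Figure D4:**
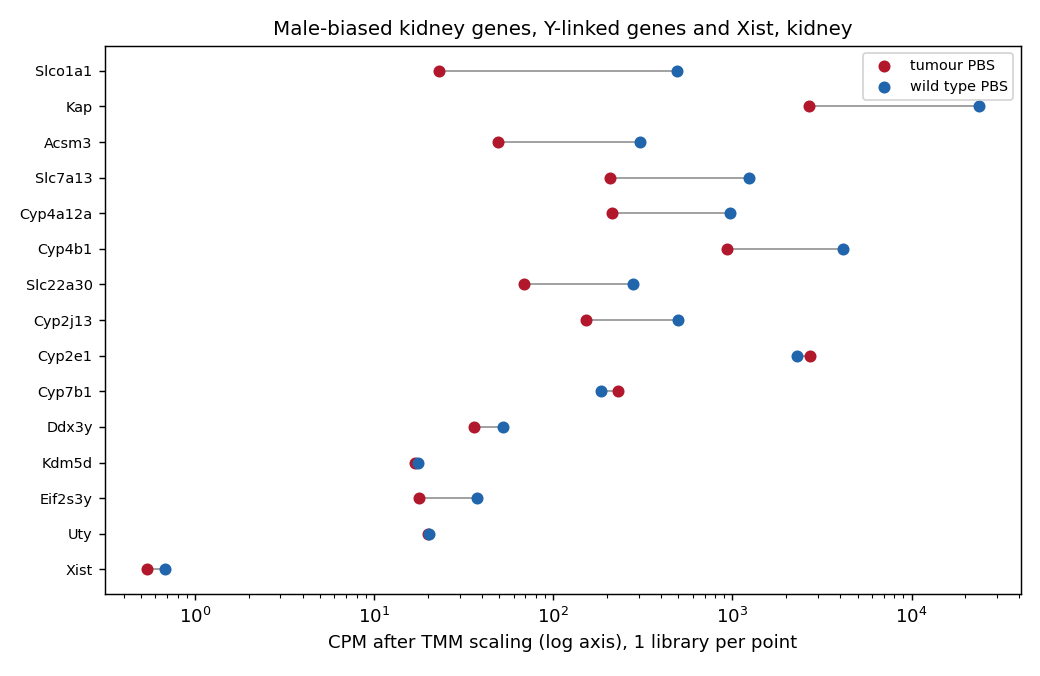
CPM on a log axis of 10 male-biased kidney genes, sorted by ratio, and of 4 Y-linked genes and Xist, with 1 library per point. For 8 of the 10 male-biased genes tumour lies at least 2-fold left of wild type, while Kdm5d and Uty nearly coincide.

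Stress genes differed by route. Of 25 immediate early genes, which cells switch on within minutes of a stimulus or of dissection, 14 were higher, 0 were lower and all 25 ratios were above 0 (median 1.08). The nuclear receptor Nr4a3 was at 10.6 CPM in tumour and 0.661 CPM in wild type (a 16-fold ratio), Fos at 6.06 CPM in tumour and 1.96 CPM in wild type (1.63), and Egr1 at 20.4 CPM in tumour and 7.10 CPM in wild type (1.52). Handling times are not in the labels. Of 20 heat shock genes 6 were higher and 0 lower (0.26): the small heat shock protein Cryab was at 320 CPM in tumour and 64.3 CPM in wild type (2.31), and Hspa1b, an inducible Hsp70 with the near-identical copy Hspa1a, at 292 CPM in tumour and 68.8 CPM in wild type (2.09).

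The ATF4 route, which cells use when amino acids run short, had 7 of 21 members higher and 1 lower (median log2 ratio 0.60). Nupr1, a stress-induced chromatin protein, was at 68.8 CPM in tumour and 10.5 CPM in wild type (2.71), the asparagine synthetase Asns at 11.1 CPM in tumour and 2.90 CPM in wild type (1.94), and Psat1 of serine synthesis at 113 CPM in tumour and 34.2 CPM in wild type (1.72). Shmt2, a mitochondrial serine enzyme, was at 107 CPM in tumour and 214 CPM in wild type (-1.01) and was no longer past 2-fold with scaling by total counts. The unfolded protein response had 0 higher and 1 lower of 21 (0.12), and Atf4 itself was at 140 CPM in tumour and 92.2 CPM in wild type (0.60). Of 33 genes of NRF2, glutathione and iron 1 was higher and 2 lower (0.01), with the haem oxygenase Hmox1 at 0.08, Nqo1 at 0.43 and Ggt1, the brush border enzyme that splits glutathione, at 383 CPM in tumour and 1068 CPM in wild type (-1.48). Of 23 p53 targets 3 were higher and 0 lower (0.28), and of 25 hypoxia genes 2 were higher and 2 lower (0.23), with Ndrg1 at 4169 CPM in tumour and 1687 CPM in wild type (1.31) and Car9 at 2.49 CPM in tumour and 9.89 CPM in wild type (-1.99). The shares past 2-fold were 9.09% for NRF2, glutathione and iron, 13.0% for p53 targets and 16% for hypoxia. Over all described genes that share was 9.85%.

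Some metallothioneins and glucocorticoid-responsive genes were higher. The metal-binding Mt1 and Mt2 were at 158 and 58.5 CPM in tumour and at 73.0 and 26.8 CPM in wild type (log2 ratios 1.11 and 1.13), and the zinc importer Slc39a14 at 102 CPM in tumour and 44.2 CPM in wild type (1.20), 3 of 13 described (median 0.12). Of 28 glucocorticoid-responsive genes 14 were higher and 0 lower (1.05), though Lcn2, Cebpd, Sgk1, Mt1, Mt2 and others of them stand on other lists too. Zbtb16, a transcription factor strongly induced by the hormone, was at 25.3 CPM in tumour and 1.06 CPM in wild type, a ratio of 4.58 (4.15 to 5.04). The receptor co-chaperone Fkbp5 was at 303 CPM in tumour and 88.2 CPM in wild type (1.78) and Tsc22d3, the leucine zipper GILZ, at 111 CPM in tumour and 31.2 CPM in wild type (1.83). The Mt2 window is shown because it holds 5 matches to the metal response motif (TGCNCNC), in capitals, on either strand. That motif is short and occurs in 47.6% of all windows.
Mt2 (chr8:94172368-94172617, plus strand): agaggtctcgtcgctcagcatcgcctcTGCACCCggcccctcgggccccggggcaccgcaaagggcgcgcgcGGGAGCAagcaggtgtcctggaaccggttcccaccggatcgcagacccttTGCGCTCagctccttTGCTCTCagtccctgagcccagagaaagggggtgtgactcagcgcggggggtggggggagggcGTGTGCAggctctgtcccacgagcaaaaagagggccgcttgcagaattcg
The Mt1 window held 1 such match.

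Clock genes moved in opposite directions. The circadian clock runs on Arntl and Clock, which switch on Per, Cry and Nr1d genes through E-boxes. Of 22 described clock genes 5 were higher and 3 lower (median log2 ratio 0.13). The repressor Cry1 (chromosome 10, 85131700 to 85185064) was at 22.1 CPM in tumour and 2.38 CPM in wild type, a ratio of 3.21 (2.92 to 3.52). Nfil3, a D-box repressor, was at 26.9 CPM in tumour and 5.36 CPM in wild type (2.33), and Arntl at 4.58 CPM in tumour and 1.30 CPM in wild type (1.82). Per2, a repressor of the same loop, was at 49.8 CPM in tumour and 23.6 CPM in wild type (1.08). The 3 that were lower are output and repressor genes: Dbp (chromosome 7, 45705088 to 45710203) was at 61.7 CPM in tumour and 227 CPM in wild type (-1.88), Nr1d1 at 26.4 CPM in tumour and 94.9 CPM in wild type (-1.85), and Ciart at 2.43 CPM in tumour and 8.57 CPM in wild type (-1.82). Clock itself was at 60.8 CPM in tumour and 50.0 CPM in wild type (0.28). The hour at which each kidney was taken is not in the labels, and hour and tumour cannot be told apart.

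**Figure D5:**
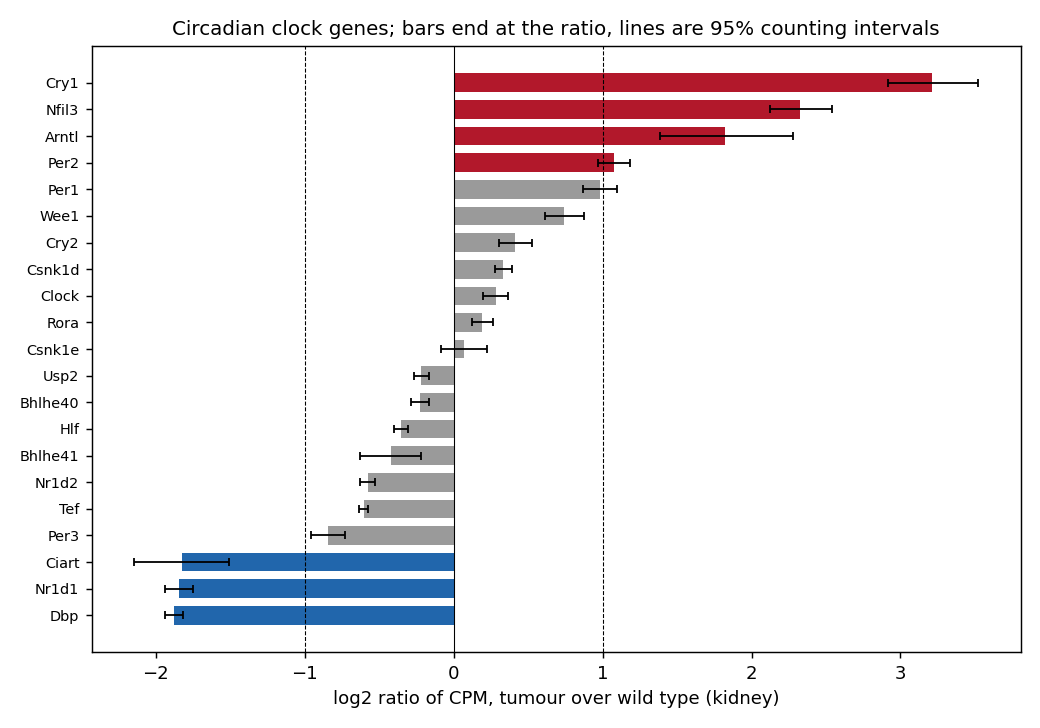
Bars show the log2 ratio of CPM, tumour over wild type, of described clock genes in the kidney, and thin lines the 95% counting interval. Cry1 is at the top at 3.21 and Dbp at the bottom at -1.88; dashed lines mark 2-fold.

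The windows of Cry1 and Ciart, which moved in opposite directions, are shown with the E-box (CACGTG) in capitals, 1 match in Cry1 and 3 in Ciart.
Cry1 (chr10:85185055-85185304, minus strand): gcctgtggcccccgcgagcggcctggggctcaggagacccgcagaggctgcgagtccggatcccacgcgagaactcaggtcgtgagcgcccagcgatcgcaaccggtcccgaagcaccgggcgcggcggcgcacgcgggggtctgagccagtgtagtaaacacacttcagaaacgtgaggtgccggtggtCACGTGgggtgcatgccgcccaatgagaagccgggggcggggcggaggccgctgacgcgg
Ciart (chr3:95882229-95882478, minus strand): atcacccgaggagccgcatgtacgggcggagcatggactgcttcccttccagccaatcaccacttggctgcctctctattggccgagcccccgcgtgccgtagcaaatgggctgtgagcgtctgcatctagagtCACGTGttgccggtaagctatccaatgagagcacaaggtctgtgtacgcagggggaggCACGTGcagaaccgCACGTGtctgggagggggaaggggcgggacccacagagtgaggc
Of 6 clock genes with a window and past 2-fold these were the only 2 with a match to the E-box or the D-box (TTATGTAA). Of all windows 6.81% held the E-box and 0.799% the D-box, and the share with either was not counted.

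Some genes of fat use were higher, as were the markers of fat cells. Of 53 described genes of fatty acid oxidation, ketones and PPAR-alpha 11 were higher and 4 lower (median log2 ratio 0.14). The PPAR-alpha targets Cyp4a14 and Cyp4a10 were at 205 and 528 CPM in tumour and at 18.3 and 228 CPM in wild type (3.48 and 1.21), of which Cyp4a14 is also on the female-biased list, and the lipase inhibitor Angptl4 at 135 CPM in tumour and 30.9 CPM in wild type (2.13). Ppara itself and the carnitine transferase Cpt1a were at 188 and 538 CPM in tumour and at 166 and 592 CPM in wild type (0.18 and -0.14). Acox2, a peroxisomal oxidase of branched fats, was lower, at 49.6 CPM in tumour and 163 CPM in wild type (-1.71), as were 3 members of the Cyp4a family, Cyp4a12a, Cyp4a12b and Cyp4a32.

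Lipid synthesis genes had 9 of 37 higher and 2 lower (median log2 ratio 0.41). The fatty acid synthase Fasn was at 420 CPM in tumour and 136 CPM in wild type (1.63) and Acacb, an acetyl-CoA carboxylase, at 93.1 CPM in tumour and 29.5 CPM in wild type (1.66), whereas the malic enzyme Me1 was at 505 CPM in tumour and 1108 CPM in wild type (-1.13). Adipocyte markers were higher for 12 of 15 described and lower for 0 (2.54), and summed to 3660 CPM in tumour and 1201 CPM in wild type. Adiponectin, Adipoq, was at 123 CPM in tumour and 9.70 CPM in wild type (3.67), the lipid droplet protein Cidec at 164 CPM in tumour and 11.4 CPM in wild type (3.84) and adipsin, Cfd, at 709 CPM in tumour and 39.2 CPM in wild type (4.18), while leptin, Lep, had 35 counts in tumour and 32 in wild type. Fat lies around the kidney, and the part of these cells in the lipid and complement results was not tested. Red cell genes were higher for 5 of 9, with the haemoglobin chain Hba-a1 at 1104 CPM in tumour and 238 CPM in wild type (2.22), and the globin copies share counts. Endothelial markers had 2 of 18 higher and 0 lower (0.20), fibroblast markers 3 higher and 1 lower of 13 (0.06), and matrix and TGF-beta genes 1 higher and 2 lower of 32 (0.02). These are 11.1%, 30.8% and 9.38% past 2-fold, against 9.85% of all described genes. Skeletal muscle, adrenal and cell cycle lists had 0 members past the size rule among 14, 3 and 11 described, and all 14 skeletal muscle ratios were below 0 (-0.35).

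Glucose and energy pathways were level by comparison. Of 20 genes of gluconeogenesis and glucose transport 1 was higher and 0 lower (median log2 ratio -0.19), and the rate-limiting Pck1 and G6pc were at 3519 and 631 CPM in tumour and at 3232 and 361 CPM in wild type (0.12 and 0.81). In glycolysis 3 of 23 were higher, with the hexokinase Hk2 at 9.32 CPM in tumour and 2.78 CPM in wild type (1.74) and Aldoc at 49.9 CPM in tumour and 16.0 CPM in wild type (1.65). Of 45 nuclear genes for respiratory chain subunits 0 were past the size rule (0.11), and of 26 citrate cycle and pyruvate genes 1 was lower, Me1 (-0.03). Proteasome subunits had 0 of 31 past it (-0.26), autophagy and lysosome genes 0 of 30 (0.03) and cytosolic ribosomal proteins 1 of 46, which was higher (0.28).

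Amino acid enzymes were past 2-fold in both directions. Of 49 described genes of amino acid breakdown and creatine synthesis 5 were higher and 9 lower (median log2 ratio -0.38). Kynu of the tryptophan route was at 33.5 CPM in tumour and 4.55 CPM in wild type (2.88), while Haao and Afmid of the same route were at 92.4 and 61.1 CPM in tumour and at 226 and 160 CPM in wild type (-1.29 and -1.39). The mitochondrial arginase Arg2 was at 60.4 CPM in tumour and 10.4 CPM in wild type (2.54), and the ornithine aminotransferase Oat at 399 CPM in tumour and 164 CPM in wild type (1.28). Odc1, the rate-limiting enzyme of polyamine synthesis, which androgen also induces in mouse kidney, was at 202 CPM in tumour and 890 CPM in wild type (-2.14). The urea cycle enzyme Ass1, which makes arginine in kidney, was at 925 CPM in tumour and 2061 CPM in wild type (-1.16), and the methyltransferase Bhmt at 5.46 CPM in tumour and 14.8 CPM in wild type (-1.44). Glul, glutamine synthetase, was at 1195 CPM in tumour and 457 CPM in wild type (1.39), among 2 higher and 1 lower of 25 ammonia and acid-base genes (0.05). For that last list the share past 2-fold was 12%, near the 9.85% of all described genes.

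Vitamin D enzymes moved in opposite directions. Cyp27b1 (chromosome 10, 127048250 to 127053006), which makes active vitamin D, was at 41.9 CPM in tumour and 8.76 CPM in wild type, a log2 ratio of 2.26. Cyp24a1, which destroys it, was at 34.0 CPM in tumour and 119 CPM in wild type, a ratio of -1.81 (-1.90 to -1.73). The phosphate carriers Slc34a1 and Slc34a3 were at 2635 and 42.9 CPM in tumour and at 3537 and 54.3 CPM in wild type (-0.42 and -0.34). The calcium channel Trpv5 was at 28.7 CPM in tumour and 10.1 CPM in wild type (1.51) and the hormone Stc1 at 21.1 CPM in tumour and 5.10 CPM in wild type (2.05). In all 5 of 30 phosphate, calcium and vitamin D genes were higher and 2 lower (-0.02).

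Genes of salt, renin and water were higher where they were past 2-fold, with 1 exception. Of 24 renin-angiotensin and natriuretic peptide genes 4 were higher and 0 lower (median log2 ratio 0.26). Angiotensinogen, Agt (chromosome 8, 124556534 to 124569706), had 622 counts in tumour and 8 in wild type, a ratio of 6.21 (5.22 to 7.43). Renin, Ren1 (chromosome 1, 133350510 to 133360325), was at 186 CPM in tumour and 65.0 CPM in wild type (1.52), and the inducible cyclooxygenase Ptgs2, which the macula densa uses to signal for renin, at 7.37 CPM in tumour and 0.378 CPM in wild type (4.29). Pericyte and smooth muscle markers other than Ren1 gave 0 higher and 0 lower, with a list median of -0.37. Of 21 genes of water handling and osmolytes 7 were higher and 1 lower (0.71), with the betaine carrier Slc6a12 at 11.3 CPM in tumour and 1.32 CPM in wild type (3.09) and the water channel Aqp8 at 6 counts in tumour and 120 in wild type, a ratio of -4.39 (-5.87 to -3.23). Of 35 sodium, potassium and chloride genes 4 were higher and 0 lower (0.20). For these the share past 2-fold was 11.4%, near the 9.85% of all described genes.

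Organic ion carriers and drug-handling enzymes were past 2-fold in both directions, and part of them were already counted above. Slc22a6, Slc22a7, Slc22a12, Slco1a1, Slc22a30, Cyp4b1, Cyp4a12a and Acsm3, all lower, also stand on the late proximal or male-biased lists. Cyp27b1 and Cyp24a1 also stand on the vitamin D list. Of 38 organic anion and cation carriers 3 were higher and 12 lower (median log2 ratio -0.64). Slc13a1, the sulphate carrier, was at 1446 CPM in tumour and 273 CPM in wild type, a ratio of 2.41 (2.38 to 2.43). The organic anion carrier family member Slc22a30 was at 68.7 CPM in tumour and 280 CPM in wild type (-2.03). Of 48 cytochrome P450 and other xenobiotic enzymes 11 were higher and 14 lower (-0.43). Cyp2d12 had 139 counts in tumour and 1801 in wild type (-3.77), and the esterases Ces2c and Ces1g were at 121 and 0.629 CPM in tumour and at 606 and 5.64 CPM in wild type (-2.32 and -3.17). Aldh1a1, which makes retinoic acid, was at 78.9 CPM in tumour and 9.37 CPM in wild type (3.07). Inmt, an amine methyltransferase, was among the 12 genes with the lowest ratios, at 45.7 CPM in tumour and 973 CPM in wild type (-4.41).

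Most genes of the Dkk1 and Wnt routes were within 2-fold in the kidney. The share past 2-fold was 10.7%, near the 9.85% of all described genes. Of 28 described Wnt, DKK and arrestin genes 2 were higher and 1 lower (median log2 ratio -0.08). Lrp6 and Lrp5, the co-receptors that Dkk1 binds, were at 149 and 28.8 CPM in tumour and at 187 and 42.6 CPM in wild type (-0.33 and -0.56). Kremen1 and Ckap4, further receptors of Dkk proteins, had ratios of -0.08 and 0.01, and the beta-arrestins Arrb1 and Arrb2 of -0.88 and -0.13. Dkk1 had 3 counts in tumour and 0 in wild type, too few for a ratio. Wnt7b, a ligand of the collecting duct, was at 35.6 CPM in tumour and 9.79 CPM in wild type (1.86), and Notum, a secreted enzyme that inactivates Wnts, at 8.42 CPM in tumour and 26.7 CPM in wild type (-1.67).

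The highest and lowest ratios outside these lists belonged to genes of other kinds. The secreted serpin Serpina10, which inhibits clotting factors, was at 58.2 CPM in tumour and 1.30 CPM in wild type (log2 ratio 5.49). The receptor gene Adgra1 had 151 counts in tumour and 2 in wild type, a ratio of 6.17 (4.29 to 9.23), the homeobox gene Meox2 345 in tumour and 6 in wild type (5.77), and the serotonin channel Htr3a 279 in tumour and 5 in wild type (5.73). At the other end the collagen gene Col19a1 had 3 counts in tumour and 140 in wild type, a ratio of -5.62 (-7.91 to -4.04). Cntnap5a had 0 counts in tumour and 101 in wild type and was at least 35.4-fold lower. The matrix linker Hapln1 had 7 counts in tumour and 131 in wild type (-4.30), and the chemokine receptor Cxcr6 had 6 in tumour and 101 in wild type (-4.14).

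The same status labels exist in muscle, in libraries that the kidney pair does not share. There 158 of 10981 genes (1.44%) were at least 2-fold higher in the tumour PBS library against each of both wild type PBS libraries, and 45 (0.41%) were lower. Of the 748 genes higher in kidney 38 (5.08%) were among the 158 of muscle, which is 24.1% of those. They took in the acute phase genes Lcn2, Socs3, Cebpd, Osmr, Bcl3, Cp and Pim1, the neutrophil genes S100a8 and S100a9, the metallothioneins Mt1 and Mt2, the clock gene Arntl and the globins. Mup2, Mup9, Mup10 and Mup16 were also among them, and similar copies of a gene were counted separately. Hp was not among them, with muscle log2 ratios of 3.33 and -1.81 against the wild type libraries. The 748 were not limited to genes counted in muscle, where Havcr1, for 1, had 0 counts in these libraries. Lcn2 was at 19.9 CPM in tumour muscle, with log2 ratios of 6.01 and 2.66 against the wild type libraries, and Mt2 was at 130 CPM in tumour muscle (4.70 and 2.27). Of the 522 genes lower in kidney 1 (0.192%) was also lower in muscle, Cyp26b1, which is 2.22% of the 45. No test of the overlap or of a difference between the tissues was made.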

How the data were processed

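RNA was measured by sequencing in 9 mouse libraries, 2 of kidney and 7 of muscle, and the kidney pair is described. Each deposited table holds unnormalised read counts by gene, the gene length and RPKM that the authors derived from them. RPKM recomputed from the deposited counts was within 0.000495% of the deposited value, and RPKM was used only for ranks by length. Per the submitters' processing notes reads were aligned with HISAT2 2.1.0 to mm10. How reads were assigned to genes (program, annotation, strand, multiple positions) is not given in the sources used here. Without strand, a gene and its antisense partner cannot be told apart. In 17 groups of described genes, 36 in all, members had equal counts throughout the series, near-identical copies among them, and 0 mitochondrially encoded genes are in the tables.

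CPM used TMM factors from edgeR 4.0.16 (R 4.3.3), computed on the 2 kidney libraries. Ratios used no prior count, with exact conditional binomial (Clopper-Pearson) 95% intervals in scipy 1.17.1. Reads are not independent molecules, so intervals and limits cover counting error only. A count of 0 was set to 3 counts for a fold, written as a bound, and no ratio was given where both counts were 3 or fewer. The size rule asks for a 2-fold ratio and 100 counts in the higher library. Alternatives were scaling by total counts, upper quartile or DESeq2 1.42.0 size factors, TMM without genes over 1% of counts, a prior count of 2, and other minimum counts and folds.

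Of 61 gene lists, 49 met the rule for being described by name: a nephron segment, or a list with 2 members, or 10%, at 2-fold or more. The members and lists were chosen with earlier results of these data known. Named genes were the 12 highest and 12 lowest ratios (without predicted genes, RIKEN clones, pseudogenes and small RNAs), up to 4 members per list and direction, the first 2 members of each list, sex-linked genes and Dkk1 receptors and adaptors. Other genes named, such as further list members and those shared with muscle, were picked with their values in view. Positions are from GENCODE M21 on GRCm38, the sequence of mm10, and promoter windows from RefSeq on GRCm38.p6. Some members of the lists are counted but not reported here by name, nor drawn by name.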

Additional observations from a re-analysis of the deposited data

Results flagged for a closer look

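9 genes were past 2-fold in kidney and past 2-fold in the other direction in muscle, where the tumour PBS library was set against each of both wild type PBS libraries. 5 of them were higher in the tumour kidney. They are Spp1, osteopontin, 3 non-coding RNAs and Lars2. Spp1 had a log2 ratio of 4.68 in kidney, and of -1.30 and -3.93 in muscle, where it was at 8.54 CPM in the tumour library. Rmrp, the RNA of the RNase MRP complex, had 130 counts in the tumour kidney and 4 in the wild type kidney, a log2 ratio of 4.95, and ratios of -3.65 and -4.77 in muscle. Rpph1, the RNA of RNase P, had ratios of 4.14 in kidney and of -3.63 and -4.10 in muscle. The ribosomal RNA precursor Rn45s had ratios of 2.12 in kidney and of -2.22 and -3.88 in muscle, where it took up 0.545% of counts in the tumour library and 1.96% and 8.29% in the wild type libraries. Lars2, a mitochondrial leucyl-tRNA synthetase, had ratios of 1.36 in kidney and of -2.71 and -3.94 in muscle. The share of ribosomal RNA thus differed between libraries in both tissues, and its part in these ratios was not tested.

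The other 4 were lower in the tumour kidney. Cd52, a leukocyte surface peptide, had a log2 ratio of -1.38 in kidney and ratios of 2.07 and 2.05 in muscle. Igfbp3, which binds insulin-like growth factors, had -1.22 in kidney, against 1.16 and 1.55 in muscle. Meox1, a homeobox factor, had -1.15 in kidney, against 2.53 and 1.66 in muscle, and Ppp1r14a, a phosphatase inhibitor of smooth muscle, had -1.74 in kidney, against 1.35 and 1.97 in muscle. The difference between the tissues was not tested for any of the 9, since the kidney has 1 library per group.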

How the results depend on the processing

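No paired analysis was possible because each kidney group has 1 library, and for the same reason none could be left out. Counts of genes higher and lower in tumour, 748 and 522 as reported, became 1174 and 953 with a minimum of 20 counts, 438 and 302 with a minimum of 500, 1700 and 1388 at 1.5-fold, and 169 and 88 at 4-fold, as fewer or more genes were asked for. Total counts (758 and 511), DESeq2 size factors (753 and 515), upper quartile scaling (695 and 579), TMM without genes over 1% of counts (748 and 522) and a prior count of 2 (739 and 517) stayed within 1.5 times, and 539 and 348 genes had intervals wholly past 2-fold. No named gene past 2-fold changed sign under those 5 alternatives. Gatm and Shmt2 were no longer past 2-fold with total counts, Gatm with DESeq2 size factors, and Ppp1r1a, Ly6c1, Phlda3 and Pfkp with upper quartile scaling, which brought in Col1a1. The median log2 ratio of all genes lay between -0.03 and 0.02. Depth limits genes with few counts, and the missing replicates limit every result.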

Other observations

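Some abundant or far-moved genes outside the naming rule are given as values, chosen after their values were seen. All but Gpx3, which is on the list of NRF2, glutathione and iron, are also outside the lists. Gpx3, the plasma glutathione peroxidase made in proximal tubules, took up 5.77% of counts in the tumour kidney and 3.13% in the wild type kidney, a log2 ratio of 0.87. Pigr, which carries immunoglobulin A across epithelia, was at 796 CPM in tumour and 3697 CPM in wild type (-2.21). Tfr2, a transferrin receptor known from liver and red cell precursors, had 838 counts in tumour and 34 in wild type (4.55). Gusb, a lysosomal glucuronidase, was at 23.4 CPM in tumour and 118 CPM in wild type (-2.33). The ribosomal RNA precursor Rn45s took up 0.728% of counts in tumour and 0.167% in wild type, and between 0.359% and 8.29% in the muscle libraries. The predicted gene Gm6300 had 0 counts in tumour and 1176 in wild type.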
